A study of Arabidopsis thaliana with 22 samples.

Results

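A pair of *Arabidopsis thaliana* lines that carry different inducible trichome regulators, pGL3::GL3-GR and pGL1::GL1-GR, was compared 24 h after treatment. The comparison used 10 of the 22 arrays of the series, which are all of its arrays of 24 h. The 4 arrays of the first line came from *gl3 egl3* mutant plants with pGL3::GL3-GR, 2 after dexamethasone (DEX) and 2 after Mock treatment. The 6 arrays of the second line came from *gl1* mutant plants with pGL1::GL1-GR, 3 after DEX and 3 after Mock treatment. Both transgenes are fusions to the hormone-binding part of the glucocorticoid receptor (GR) and are driven by the promoter of their own gene. The Mock treatment was ethanol, the solvent of DEX. By the methods, RNA came from green tissues of several seedlings per extraction, which had been moved to medium with DEX or Mock solution. For the DEX treatments the methods also name whole seedlings. Replicates of a group are the samples numbered apart in the labels, which the methods call biologically independent, and p-values measure the spread between them. The accession of either line is not given in the sources used here. Differences between the lines therefore hold the mutations, the transgenes, any difference of accession and the way the arrays were normalized, and these cannot be told apart.

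Trichomes are single-celled hairs of the leaf epidermis. The MYB factor GL1 (of the R2R3 type) binds to the related bHLH factors GL3 and EGL3. Together with TTG1, a WD40 repeat protein, they form the complex that starts trichome fate by activating genes such as *GL2*. Small R3-MYB proteins such as CPC and TRY inhibit this complex, and CPC can move to neighbouring cells. Plants without GL1, or without both GL3 and EGL3, are nearly hairless. In a GR fusion the factor stays inactive until DEX is given. The study compared DEX with Mock plants within each line and, on arrays not used here, wild type with *gl1* and with *gl3 egl3* plants. Here the lines themselves were set against each other, with the treatment as a covariate.

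Values are log2 expression values per probe set of the ATH1 array. The 24 h arrays had medians of 4.67 to 4.72 in GL3-GR and 4.45 to 4.58 in GL1-GR, and the lowest value was 2.05 on each GL3-GR array and 1.97 on each GL1-GR array. The 10 arrays were therefore quantile-normalized together. After this normalization, values of 2 arrays correlated at 0.997 to 0.998 within GL3-GR, at 0.992 to 0.998 within GL1-GR and at 0.957 to 0.962 between the lines. The spread around the group means (root mean square residual SD) was 0.200 in GL3-GR and 0.302 in GL1-GR. *GL1* lay at 2.12 and *EGL3* at 2.15 on all 10 arrays, which is the floor that the array processing gives to probe sets without signal and where values have no order. *GL3* had no named probe set, so the regulators themselves do not check which array came from which line. *RCA*, which encodes rubisco activase, had 13.51 to 13.61 in GL3-GR and 13.31 to 13.70 in GL1-GR. Its signal marks green cells and does not show whether roots were left out. Of 12 root markers 2 had a named probe set. *PYK10*, a beta-glucosidase gene best known from roots, was present in both lines, with 11.85 to 12.03 in GL3-GR and 13.10 to 13.27 in GL1-GR, and the root hair gene *EXP7* lay at 2.16 in GL3-GR and 2.17 in GL1-GR.

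Most measured genes differed between the lines. Of 14255 probe sets tested, 8768 passed at a limma adjusted p under 0.05, which is 61.5%, and 4510 of them were higher (31.6%) and 4258 lower (29.9%) in GL3-GR. Most differences were small, with 5772 of the 8768 under 1 in size on the log2 scale. A size over 1 was reached by 2996 (21%), with 1523 higher and 1473 lower, and a size over 2 by 1089 (7.64%), with 510 higher (3.58%) and 579 lower (4.06%). Sizes over 4 were found for 115 higher and 164 lower probe sets. The arrays of the lines did not overlap for 7111 probe sets (49.9%), and 7028 of these passed. The median difference of all tested probe sets was 0.017.

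**Figure D1:**
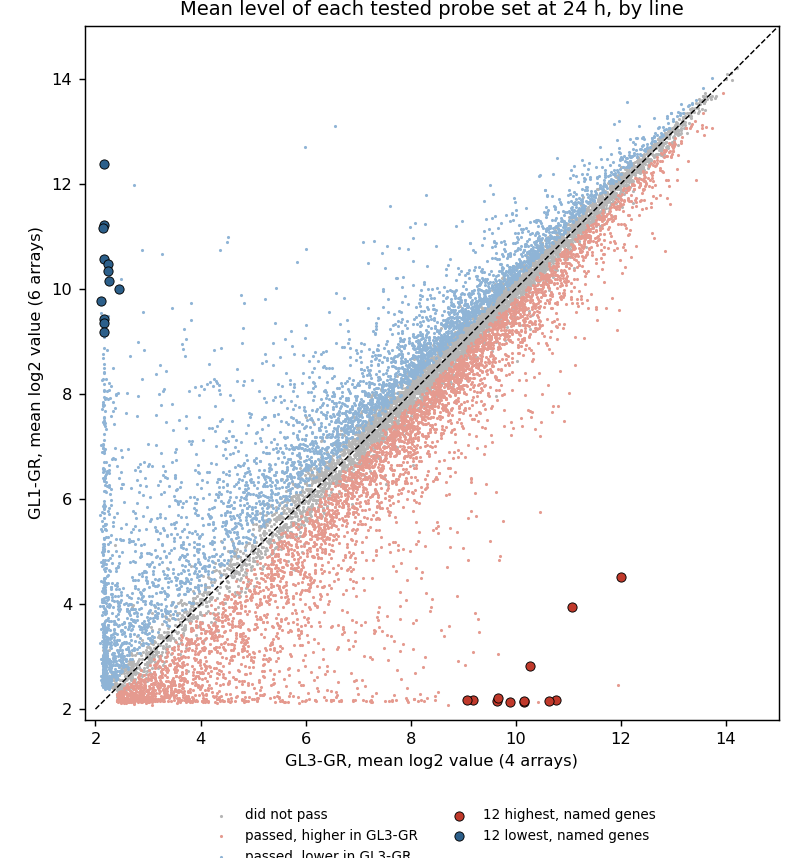
Mean log2 value of each tested probe set at 24 h in GL3-GR (horizontal axis, 4 arrays) and GL1-GR (vertical axis, 6 arrays), with the dashed line at equal values and the 12 highest and 12 lowest named genes marked. Points at the left and lower edges lay at the floor in one line and up to 12.38 in the other.

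The share that passed was read by level in the 12686 probe sets above the 40th percentile on all 10 arrays, since the others could be tested through one line alone. Of the 3172 with the lowest means (2.47 to 6.29) 73.8% passed and 36.1% passed with a size over 1, whereas for the 3172 with the highest means (9.82 to 14.2) the shares were 47% and 4.95%. Gene length moved with the direction. With named genes put into 3 groups of 2594 by length, the median difference of the longest was 0.142, with 38.7% higher and 23.2% lower, and that of the shortest was -0.113, with 26% higher and 38.1% lower. The 3′ minus 5′ signals of the array's control genes, which read the integrity of the RNA, overlapped between the lines for actin (2.35 to 2.51 in GL3-GR, 2.22 to 2.54 in GL1-GR), *GAPDH* (0.70 to 0.80 in GL3-GR, 0.58 to 0.73 in GL1-GR) and ubiquitin (1.98 to 2.2 in GL3-GR, 2.05 to 2.28 in GL1-GR). The part of length in the differences was not tested. Because the tissue is a mixture of cells, fewer cells that express a gene and less RNA per cell cannot be told apart.

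The genes with the largest positive differences were low in GL1-GR, most of them near background. A value below the 40th percentile of its array was taken as near the floor, and a gene near the floor on all arrays of a line is given an "at least" fold against that limit. For some such genes only the difference is printed, and its size then depends on where the floor lies. AT5G16980 had 11.07 and 10.68 in GL3-GR DEX plants and 10.82 and 10.48 in GL3-GR Mock plants, against 2.17 on all GL1-GR arrays. The difference was 8.59 (SE 0.10, adjusted p = 5.9e-12), at least 330-fold. AT1G23960 had 10.68, 10.65, 10.54 and 10.64 in GL3-GR and 2.15 on all GL1-GR arrays, a difference of 8.48 (SE 0.05) and at least 300-fold. For both genes the arrays of a line lay close together and far from those of the other line.

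*AOP3* is a member of the aliphatic glucosinolate pathway and encodes a 2-oxoglutarate-dependent dioxygenase that modifies the side chain. It had 8.82 and 8.94 in GL3-GR DEX plants, 9.42 and 9.54 in GL3-GR Mock plants and 2.17 to 2.18 in GL1-GR. The difference was 7.01 (SE 0.11, adjusted p = 5.88e-11), at least 110-fold. *HTB11*, a histone H2B gene, had 10.79, 11.21, 11.05 and 11.20 in GL3-GR, against 3.85 to 3.99 with a median of 3.97 in GL1-GR, a difference of 7.11 (SE 0.09). AT1G23130 had 11.98 to 12.02 in GL3-GR and 4.44 to 4.64 in GL1-GR. AT4G11000, which encodes an ankyrin repeat protein, ran from 8.57 to 9.89 in GL3-GR and lay at 2.17 to 2.18 in GL1-GR. The other 6 of the 12 highest named genes were AT5G51620 (difference 8.02), AT1G73490 (7.99), AT3G48640 (7.76), AT3G47250 (7.48), AT1G09500 (7.45) and AT5G26970 (7.44). AT1G09500 was the most uneven of these in GL1-GR, with 2.13 to 4.28 around a median of 2.46.

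In the other direction, AT2G25510 showed the largest difference of any named gene. It had 2.16 on all 4 GL3-GR arrays and 12.19 to 12.58, with a median of 12.37, in GL1-GR. The difference was -10.22 (SE 0.09, adjusted p = 9.27e-13), which makes it at least 1010-fold lower in GL3-GR. AT5G49440 and AT2G13660 followed, with 2.17 and 2.14 in GL3-GR against medians of 11.32 and 11.17 in GL1-GR, and were at least 448-fold and 434-fold lower. All 3 lay at the floor on every GL3-GR array, and the tables used here name them by locus only.

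AT3G01190 had 2.15 on all GL3-GR arrays and 8.79 to 9.76 in GL1-GR. AT1G51820 was less even in GL1-GR, and had 2.50, 2.48, 2.48 and 2.31 in GL3-GR and 8.60 to 10.90, with a median of 10.30, in GL1-GR, a difference of -7.55 (SE 0.40, adjusted p = 2.1e-07). AT2G18370 had 2.13 to 2.37 in GL3-GR and 9.69 to 11.00 in GL1-GR, a difference of -8.22 (SE 0.21), at least 270-fold lower. AT2G01090, a gene for the hinge protein of mitochondrial ubiquinol-cytochrome c reductase, had 2.11 in GL3-GR and 9.19 to 10.36 in GL1-GR. The difference was -7.66 (SE 0.19), at least 165-fold lower. AT2G21045 had 2.16 in GL3-GR and 8.60 to 9.71 in GL1-GR. AT2G22425 (difference -8.40), AT4G39675 (-8.10), AT1G67470 (-7.89) and AT4G22212 (-7.27) complete the 12 lowest. In all 24 named genes the 4 GL3-GR arrays and the 6 GL1-GR arrays did not overlap, as the choice of these genes required.

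**Figure D2:**
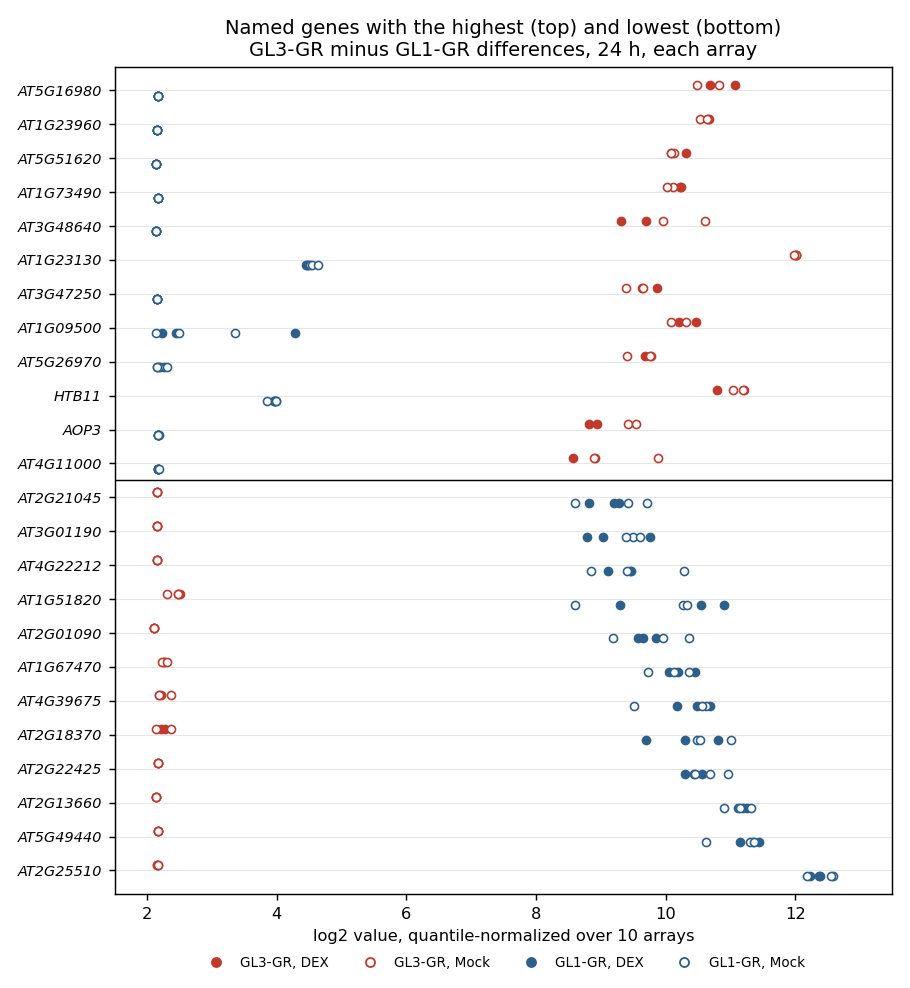
Log2 value on each of the 10 arrays of 24 h for the 12 named genes with the highest (top) and the 12 with the lowest (bottom) GL3-GR minus GL1-GR difference, with GL3-GR in red above GL1-GR in blue, filled for DEX and open for Mock. DEX and Mock arrays of a line lie together, and the gap between the lines exceeds the spread within each line.

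Probe sets seen in one line and near the floor in the other were not rare. Probe sets near the floor on all 6 GL1-GR arrays and above it on all 4 GL3-GR arrays numbered 459, and 49 of these were at least 16-fold higher in GL3-GR. Probe sets near the floor on all 4 GL3-GR arrays and above it on all 6 GL1-GR arrays numbered 491, of which 87 were at least 16-fold lower in GL3-GR. At 64-fold, 13 and 24 were left. Most of those with 1 gene are known by locus only, and those with a RefSeq symbol are given here, which were chosen after their values were seen. *TNY*, an AP2/ERF transcription factor gene, had 2.16, 2.22, 2.21 and 2.27 in GL3-GR and 8.50 to 9.19 in GL1-GR, at least 86.9-fold lower. *LUL1*, a RING-type ubiquitin ligase gene, had 2.16 on all GL3-GR arrays and 8.31 to 8.50 in GL1-GR, at least 65-fold lower. *ARLA1B*, an ARF-like GTPase gene, had 2.15 in GL3-GR and 6.30 to 7.39 in GL1-GR. In the other direction *ECS1* had 7.98, 7.97, 7.95 and 8.34 in GL3-GR and 2.19 to 2.2 in GL1-GR, at least 50.7-fold higher. In each of these genes the arrays of one line stayed at the floor. The remaining ones with a symbol were *AOP3*, *SWEET10*, *GSTU26*, *AGL24* and *RALFL27*, whose values are given with their families or pathways. The same lines at 4 h, on arrays that the 24 h comparison did not use, showed whether this held. The limit for near the floor at 4 h was 4.3 to 4.43 on GL1-GR arrays and 2.96 to 3.11 on GL3-GR arrays. It was thus looser for GL1-GR, and the next counts of the lines are not alike. Of the 49 probe sets seen only in GL3-GR, 39 lay near the floor on all 6 GL1-GR arrays of 4 h as well. Among the 39 that could be tested at 4 h, 35 passed with the same sign and 1 with the opposite sign. Of the 87 seen only in GL1-GR, 27 lay near the floor on all 6 GL3-GR arrays of 4 h. Among the 75 tested there, 52 passed with the same sign and 6 with the opposite sign.

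Most regulators and targets of trichome initiation could not be tested at 24 h, and among those tested *CPC* had the largest difference. Of 25 loci in the list of initiation and patterning genes, 19 had a named probe set and 11 were tested. Of the 11, 3 were higher (31.6% of all tested probe sets), 2 lower (29.9%) and 6 did not pass. The median difference was 0.25 (0.02 over all tested probe sets). The R3-MYB product of *CPC* inhibits trichome fate in leaves and promotes root hair fate in roots. *CPC* had 2.45 and 2.52 in GL3-GR DEX plants and 2.41 and 2.44 in GL3-GR Mock plants. In GL1-GR it had 6.03 to 6.66, with a median of 6.41. The difference was -3.95 (SE 0.12, adjusted p = 4.68e-09), and the *CPC* arrays of the lines did not overlap. The GL3-GR values of *CPC* were little above the floor, so the size of this difference depends on where the floor lies. *TRY*, a related R3-MYB gene, had 2.91, 3.03, 3.00 and 2.87 in GL3-GR and 2.25 to 3.26 in GL1-GR, a difference of 0.28 (SE 0.21, adjusted p = 0.277), with overlapping arrays.

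*MYBL2*, an R3-MYB repressor of flavonoid genes, was higher in GL3-GR, with 9.47, 9.80, 9.52 and 9.42 there and 7.93 to 9.16 in GL1-GR, a difference of 1.01 (SE 0.23, adjusted p = 0.00383). *GEM*, which couples cell division to epidermal fate, was higher by 0.39 (SE 0.06, adjusted p = 0.000578), and At3g50790 by 0.37 (SE 0.08, adjusted p = 0.00265). *ROL1*, a rhamnose synthase gene, was lower, with a difference of -0.36 (SE 0.12, adjusted p = 0.0253). *TTG1* had 8.50, 8.24, 8.19 and 8.38 in GL3-GR and 7.65 to 8.44 in GL1-GR, a difference of 0.18 (SE 0.14) that did not pass. The remaining tested members, *FDH* (-0.14), At4g20960 (0.15), At1g77670 (0.25) and the GRAS gene *SCL8* (0.29), did not pass either. *SCL8* was above the 40th percentile on only 1 of 6 GL1-GR arrays. It was thus tested through GL3-GR, where its 2.64 to 2.66 lay little above the floor. Apart from *GL1* and *EGL3*, the genes *GL2*, *TTG2*, *MYC1*, *MYB23*, *ETC1* and *GIS* lay near the floor in both lines and were not tested, so the defining trichome genes could not be read in these arrays at 24 h.

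Endoreduplication is the DNA replication without division that enlarges trichome cells. All 24 loci had a named probe set and 20 probe sets were tested, of which 12 were higher, 4 lower and 4 did not pass, with a median difference of 0.39. The 12 of 20 stand beside 31.6% of all tested probe sets. However, *RHL1* and *RHL2* were near the floor on all GL1-GR arrays and *FAS2* on 5 of 6. These 3 could be tested only through GL3-GR, where they were above it. For *RHL2* (2.66 to 2.72) and *FAS2* (2.64 to 2.99) the GL3-GR values were little above the floor. With members above the 40th percentile on all 10 arrays alone, 9 were higher and 4 lower, with a median of 0.24. *RHL1* and *HYP6* encode parts of the plant DNA topoisomerase VI complex. *RHL1* had 4.69, 4.70, 4.69 and 4.66 in GL3-GR and 2.23 to 2.26 in GL1-GR, a difference of 2.44 (SE 0.04, adjusted p = 1.14e-10), at least 4.89-fold. *HYP6* had 4.51 to 4.56 in GL3-GR and 2.80 to 3.52 in GL1-GR, a difference of 1.29 (SE 0.13). *KAK*, a HECT ubiquitin ligase gene whose loss gives overbranched trichomes, was higher by 1.42 (SE 0.13) on one of its probe sets, while the other lay at 2.15 on all arrays. *KRP1*, a cyclin-dependent kinase inhibitor gene, was higher by 0.99 (SE 0.07).

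Against these, *CYCD3;1*, a D-type cyclin gene that promotes the mitotic cycle, had 3.42 to 3.47 in GL3-GR and 4.60 to 5.61 in GL1-GR, a difference of -1.59 (SE 0.16, adjusted p = 2.25e-05). *CDC6*, a gene for DNA replication licensing, was lower by a similar amount, with a difference of -1.21 (SE 0.12). Both *RBR1*, the retinoblastoma-related gene, and *SIM*, a kinase inhibitor gene needed for trichome endoreduplication, were singled out after their values were seen. *RBR1* had 6.97 to 7.02 in GL3-GR and 6.07 to 6.52 in GL1-GR, a difference of 0.79 (SE 0.09, adjusted p = 3.43e-05), and *SIM* had 6.97 to 7.53 in GL3-GR and 7.70 to 8.03 in GL1-GR, a difference of -0.60 (SE 0.11, adjusted p = 0.00103). Of the other tested members, *RHL2* had 2.66 to 2.72 in GL3-GR and 2.21 to 2.23 in GL1-GR, at least 1.22-fold higher. *SPY*, *FAS2*, *E2FA*, *CDKC;1*, *CDKC;2* and *CYCT1;5* were higher by 0.24 to 0.79, and *CDKA;1*, the main cell cycle kinase gene, had a difference of -0.32. *CPR5*, *FIP37*, *MSI1* and *CYCT1;4* did not pass, with values from -0.01 to 0.19. At 4 h, 8 of 19 were higher (32.5% of all probe sets tested at 4 h) and 3 lower (38.7%), and *SIM* had a difference of 1.99 there.

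The genes of trichome shape, most of which act on actin or microtubules, were near the shares of all tested probe sets. Of 17 tested, 6 were higher (31.6% of all), 7 lower (29.9% of all) and 4 did not pass, with a median difference of 0.11. *SPK1*, a gene for a guanine nucleotide exchange factor of small GTPases, had 4.85 to 5.15 in GL3-GR and 5.66 to 7.04 in GL1-GR, a difference of -1.41 (SE 0.24, adjusted p = 0.000676). *NAP1* and *DIS3*, which encode subunits of the WAVE complex, were higher by 1.17 (SE 0.23) and 1.07 (SE 0.11). *BRK1* had a difference of -0.54, and *FASS*, a phosphatase subunit gene needed for microtubule arrays, one of 0.72. AT1G61580, which the list gives as *ARP2*, had one of -0.73, and this locus is not taken here as an actin gene. *WURM*, *DIS1*, *KIS* and *AN* passed with -0.52, -0.49, -0.30 and -0.28, and *KIPK*, *KINESIN-13A* and *ARP7* with 0.65, 0.48 and 0.27. *DIS2*, *TFCC*, *ZWI* and *KLK* did not pass. Subunits of the same actin-nucleating machinery thus lay on both sides.

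**Figure D3:**
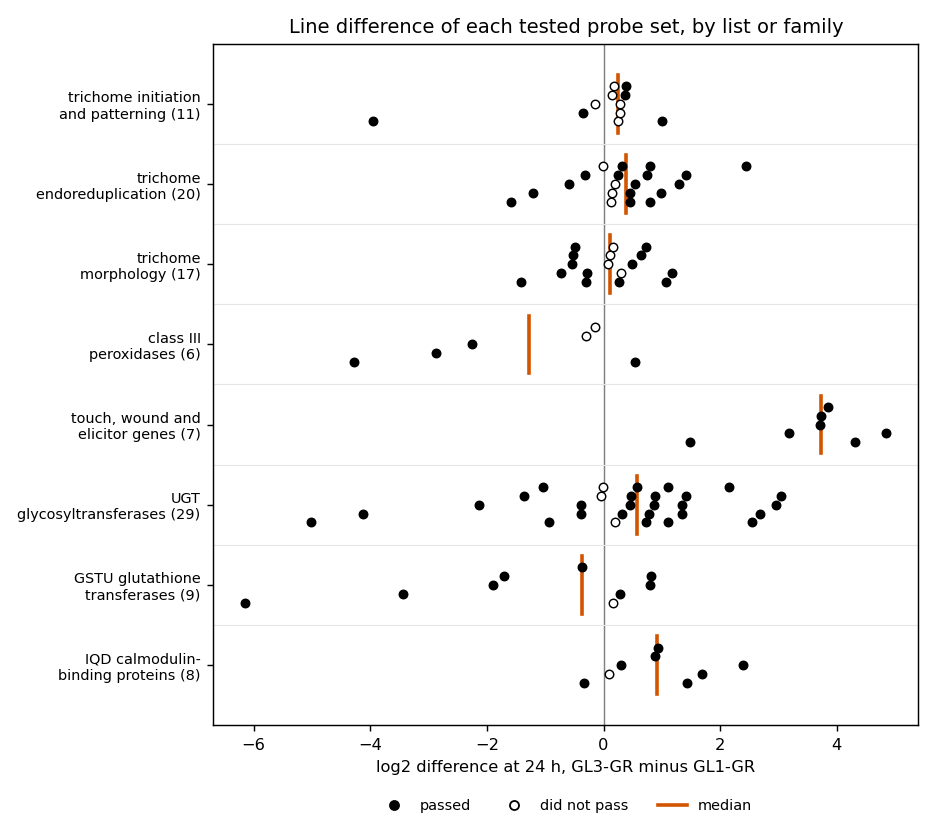
GL3-GR minus GL1-GR log2 difference at 24 h of each tested probe set (points, filled where passed), by gene list or family with the number tested, and the median of each (orange bar). The trichome lists straddle 0. All 7 touch, wound and elicitor genes, a list drawn up after the values had been seen, lie to its right, with a median of 3.73.

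Over all 26 lists of pathways and cell type markers, only 107 of 394 loci had a named probe set here, and 82 probe sets were tested. Of these, 31 were higher (31.6% of all tested probe sets), 24 lower (29.9%) and 27 did not pass. For 8 lists there was no tested member, among them heat shock and circadian clock genes. In the glucosinolate pathway AT2G25450, listed for side-chain modification, was lower in GL3-GR, where it had 10.98 to 11.31, against 12.19 to 12.46 in GL1-GR, a difference of -1.22 (SE 0.08). *BCAT4*, of the first step of chain elongation, had a difference of 0.32 (SE 0.25, adjusted p = 0.295).

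In flavonoid synthesis, *CHIL*, a gene for a non-catalytic chalcone isomerase-like protein, had 2.73, 2.69, 3.06 and 2.71 in GL3-GR and 6.71 to 8.16 in GL1-GR, a difference of -4.78 (SE 0.19, adjusted p = 2.47e-08). *UGT78D1*, a flavonol rhamnosyltransferase gene, was higher by 1.10 (SE 0.34, adjusted p = 0.0183) with overlapping arrays, and *UGT78D2* had a difference of -0.04. *UGT79B1*, of anthocyanin glycosylation, passed close to the floor with -0.55. *DFR* lay near the floor in both lines.

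Few defence genes could be read. Of the 22 loci of the salicylate list 3 probe sets were tested, of which 2 were higher (31.6% of all tested probe sets) and 1 did not pass. Of the 19 of the jasmonate list 2 were tested, both lower (29.9% of all). *PDF1.2*, a plant defensin gene induced by jasmonate and ethylene, had 5.51 and 4.66 in GL3-GR DEX plants and 3.54 and 4.31 in GL3-GR Mock plants, against 9.60 to 12.60 with a median of 10.61 in GL1-GR. The difference was -6.40 (SE 0.60, adjusted p = 1.25e-05). *PDF1.2B*, whose sequence is close to *PDF1.2* so that probes may be shared, had a difference of -1.58 (SE 0.62, adjusted p = 0.0491) with overlapping arrays. *GRX480*, a glutaredoxin gene induced by salicylate, was higher, with 7.45, 8.11, 8.59 and 8.65 in GL3-GR and 4.19 to 4.89 in GL1-GR, a difference of 3.71 (SE 0.18). *SAG101*, also of the salicylate list, had a difference of -0.03.

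Of single members of other lists, *AGL24*, a MADS-box gene that promotes flowering, had 2.18, 2.18, 2.18 and 2.22 in GL3-GR and 7.12 to 7.52 in GL1-GR, a difference of -5.14 (SE 0.09, adjusted p = 7.25e-11), at least 30.5-fold lower. *COR15A*, a cold-induced gene, was lower with a difference of -1.58 (SE 0.42, adjusted p = 0.0089), while *COR47*, *COR27* and *COR15B* did not pass. Of 4 photosynthesis genes, *PSAE1* was higher by 0.21 and 3 did not pass. Among markers of other cell types, *PYK10* had a difference of -1.23 (SE 0.06, adjusted p = 6.52e-08), and the part of root tissue in the line difference was not tested. *SWEET11*, of phloem cells, had one of -0.85 (SE 0.07) and *STOMAGEN*, which is made in mesophyll and promotes stomata, one of -0.65 (SE 0.08). The stomatal gene *FMA* did not differ beyond its error, with 0.13 (SE 0.13). *SPCH*, of the same list, passed higher by 0.28 (SE 0.05) but close to the floor. It had 2.40 to 2.52 in GL3-GR and 2.15 to 2.16 in GL1-GR, at least 1.03-fold. Genes often used as references were not level between the lines, as AT4G34270 was higher by 1.11 (SE 0.09) and *SAND* by 0.37 (SE 0.08), while AT4G26410 was lower with -0.76 (SE 0.07).

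A list of genes that respond early to touch, wounding or elicitors was drawn up after the values had been seen, so its count at 24 h restates that choice. Of its 24 loci, 7 had a named probe set, and 7 of 7 were higher (31.6% of all tested probe sets), 6 of them by more than 2 (3.58%), with a median difference of 3.73. *STZ*, a zinc finger repressor gene of stress responses, had 9.32 and 9.88 in GL3-GR DEX plants and 10.15 and 9.39 in GL3-GR Mock plants, against 3.97 to 5.59 in GL1-GR, a difference of 4.85 (SE 0.29, adjusted p = 5.09e-07). *WRKY53*, a regulator of defence and leaf senescence, had 6.92, 8.51, 9.62 and 8.57 in GL3-GR and 3.30 to 4.79 in GL1-GR, a difference of 4.32 (SE 0.37, adjusted p = 6.65e-06). In both genes the lowest GL3-GR array was that of DEX 1.

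*DTX50*, which encodes an efflux carrier of the detoxification family, had 6.6, 7.91, 8.37 and 6.73 in GL3-GR and 2.80 to 3.81 in GL1-GR, a difference of 3.85 (SE 0.37). Calmodulin-like proteins read calcium signals, and 3 of their genes were in the list. *CML37* had 4.84, 6.22, 6.77 and 6.31 in GL3-GR and 2.13 to 2.68 in GL1-GR, a difference of 3.73 (SE 0.28), and *CML23* one of 3.18 (SE 0.21). *CML38* had the smallest difference in the list, with 10.60 to 10.94 in GL3-GR and 8.27 to 10.09 in GL1-GR, or 1.49 (SE 0.30, adjusted p = 0.00185). The summed level of the 7 genes (log2 of the sum) was 11.39 to 12.21 on the GL3-GR arrays and 8.56 to 10.24 on the GL1-GR arrays. Lowest among the GL3-GR arrays was DEX 1 in 7 of 7 genes, and without that array the median difference was 4.09. Both DEX and Mock plants of GL3-GR showed the high levels. The arrays of the lines overlapped for none of the 7, where those of 49.9% of all tested probe sets did not overlap, and this too restates the choice. *CML37* was above the 40th percentile on only 1 of 6 GL1-GR arrays, so it was tested through GL3-GR.

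**Figure D4:**
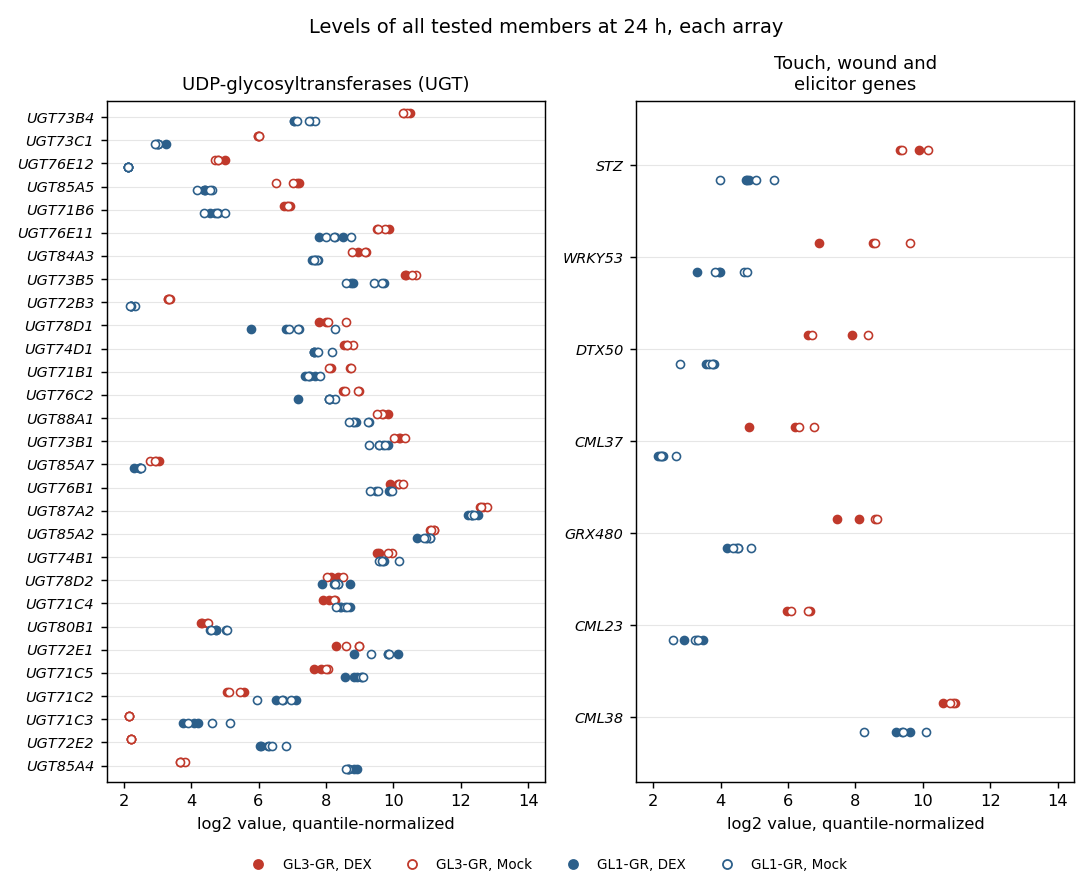
Log2 value on each array of 24 h for all tested UDP-glycosyltransferase genes (left) and all tested touch, wound and elicitor genes (right), in order of the difference, with GL3-GR in red above GL1-GR in blue, filled for DEX and open for Mock. In the right panel every red point lies to the right of the blue points of its row. In the left panel 18 of 29 probe sets were higher (31.6% of all tested) and 8 lower (29.9%) in GL3-GR.

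Class III peroxidases, secreted enzymes that cross-link or loosen cell walls with hydrogen peroxide, included genes with signal in one line only. The list held 14 members that the annotation names as peroxidases, and was also drawn up after values had been seen. It is not the whole family, and peroxidase loci without such a symbol are not counted. Of the 14, 7 had a named probe set and 6 were tested. Of these 6, 3 were lower (29.9% of all tested probe sets), 1 higher (31.6%) and 2 did not pass. *PRX72* had 2.14 on all GL3-GR arrays and 5.69 to 6.90 in GL1-GR, at least 16.1-fold lower in GL3-GR (adjusted p = 6.09e-08, means 2.14 in GL3-GR and 6.4 in GL1-GR). *PRX25* had 2.16 in GL3-GR and 4.95 to 5.21 in GL1-GR, at least 6.26-fold lower. *PRX37* had 5.76, 5.70, 6.09 and 6.69 in GL3-GR and 8 to 8.65 in GL1-GR, a difference of -2.25 (SE 0.17). The higher one, *PRX52*, had 2.68 to 2.76 in GL3-GR and 2.17 to 2.18 in GL1-GR, at least 1.25-fold. The abundant *PRX71* and *PRX42* (*PRXR1*) overlapped between the lines. *PRX71* had 11.53 to 11.86 in GL3-GR and 11.04 to 12.33 in GL1-GR, and *PRX42* had 11.20 to 11.44 in GL3-GR and 11.14 to 12.26 in GL1-GR.

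Symbols that share a stem were gathered into 33 families with at least 5 tested members, and those described here were chosen after their values were seen. The UDP-glycosyltransferases (UGT), which attach sugars to hormones and secondary metabolites, were the largest, with 29 tested, 18 higher (31.6% of all tested probe sets), 8 lower (29.9%) and a median of 0.57 (0.02 over all). *UGT73B4* had 10.28 to 10.50 in GL3-GR and 7.05 to 7.67 in GL1-GR, a difference of 3.04 (SE 0.14), and *UGT73C1* one of 2.96 (SE 0.07). *UGT76E12* had 4.71 to 5 in GL3-GR and 2.13 on all GL1-GR arrays. Among the members of group 71C the sign was the same throughout, as *UGT71C2*, *UGT71C3*, *UGT71C4* and *UGT71C5* had differences of -1.36, -2.13, -0.38 and -1.03. *UGT85A4* was the lowest, with 3.67 to 3.80 in GL3-GR and 8.58 to 8.91 in GL1-GR, a difference of -5.01 (SE 0.07). *UGT72E2*, of monolignol glucosylation, was at 2.2 in GL3-GR and at 6.03 to 6.81 in GL1-GR, at least 15.2-fold lower.

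Of 9 tau class glutathione transferases (GSTU), 3 were higher and 5 lower, where 31.6% and 29.9% of all tested probe sets were. *GSTU26* had 2.13 on all GL3-GR arrays and 8.08 to 8.52 in GL1-GR, a difference of -6.14 (SE 0.09, adjusted p = 3.23e-11), at least 58.8-fold lower. Of 10 beta-glucosidases (BGLU), 4 were higher and 3 lower, and *BGLU33* had 8.17 to 8.30 in GL3-GR and 2.2 to 3.92 in GL1-GR, a difference of 5.44 (SE 0.41). The sugar transporter gene *SWEET10* had 6.05 to 6.69 in GL3-GR and 2.17 in GL1-GR, at least 17.3-fold higher. In the calmodulin-binding IQD proteins, 6 of 8 were higher (31.6% of all), 1 was lower and the median was 0.91. *RALFL31* and *RALFL27*, which encode secreted peptides of the same family, lay on opposite sides. *RALFL31* had 6.57 to 6.98 in GL3-GR and 3.38 to 4.15 in GL1-GR, whereas *RALFL27* had 2.11 in GL3-GR and 6.39 to 7.84 in GL1-GR.

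The differences were spread over the nuclear genome. By chromosome, 63.1%, 65.7%, 60.2%, 65.4% and 61.7% of tested genes on chromosomes 1 to 5 passed, and 7.88% of all 7713 nuclear genes passed with a size over 2. Of 69 plastid-encoded genes, 15 passed (21.7%), 4 higher and 11 lower, and none with a size over 2. Among the plastid genes of ribosomal proteins, 0 of 7 *rpl* and 1 of 8 *rps* genes passed.

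Around the mutated loci, the 100 loci on each side in order of locus number were examined. Near *GL1*, 30 of 40 tested genes passed (75%) and 7 had a size over 2 (17.5%). Near *EGL3* the counts were 36 of 50 (72%) and 9 (18%), and near *GL3* 35 of 56 (62.5%) and 5 (8.93%). These shares stand against 62.9% and 7.88% of all nuclear genes. *CSLC04*, a glucan synthase gene near *GL1*, had 8.36 to 8.80 in GL3-GR and 3.40 to 3.54 in GL1-GR, a difference of 5.07 (SE 0.09). AT5G40500 near *GL3* had 3.18 to 3.29 in GL3-GR and 8.41 to 8.69 in GL1-GR, a difference of -5.33 (SE 0.07). AT1G64360 near *EGL3* had 7.42 to 7.91 in GL3-GR and 2.58 to 4.89 in GL1-GR, a difference of 4.37 (SE 0.41). These 3 were chosen after their values were seen.

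Neighbouring genes were described by runs of at least 3 tested loci in order that passed with 1 sign. There were 342 such runs with 1206 of 7652 loci, 169 higher and 173 lower. As 31.6% of all tested probe sets were higher and 29.9% lower, runs also arise between genes that have nothing in common, and whether there were more than that was not tested. The longest had 8 loci, AT4G38550 to AT4G38810, all higher in GL3-GR and including *KAK*. With a size over 2 throughout, 7 runs of 22 loci were left. The longest, AT5G37980, AT5G37990, AT5G38020 and AT5G38030, had all 4 genes at 2.1 to 2.15 on every GL3-GR array and differences of -2.69, -2.59, -4.90 and -3.45. In the run of AT5G45480, AT5G45500 and AT5G45510 the differences were -2.34, -6.54 and -5.72. The single run of higher genes, AT4G27652, AT4G27654 and AT4G27657 had differences of 3.97, 3.37 and 3.11. The other 4 runs were lower, with AT5G06270 (-5.95), AT2G17740 (-4.81), AT1G31440 (-4.45) and AT4G15420 (-3.10) as their lowest members.

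The same lines were compared at 4 h, in 6 GL3-GR and 6 GL1-GR arrays that share no sample with those of 24 h. Here 10247 of 14398 probe sets passed (71.2%), 4678 higher and 5569 lower. These arrays differed more in their overall distribution, with medians of 3.62 to 3.72 in GL3-GR and 5.96 to 6.06 in GL1-GR, so a difference at 4 h rests more on the normalization. Of 13327 probe sets tested at both times, 3500 passed at both with the same sign, which is 43.7% of the 8003 that passed at 24 h and 37.5% of the 9342 that passed at 4 h. Another 2249 passed with opposite signs (28.1% and 24.1%). This balance depends on the normalization, as with values as deposited 3420 had the same sign and 4284 opposite signs.

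Large differences were shared more often. Of 955 with a size over 2 at 24 h, 605 passed at 4 h with the same sign (63.4%) and 146 with the opposite sign. Of 244 with a size over 4, these were 186 (76.2%) and 23. *AOP3*, *HTB11* and AT1G23130 had differences of 6.58, 6.84 and 5.90 at 4 h, and AT2G25510 and AT5G49440 had -7.80 and -7.24. *CHIL*, *PDF1.2* and *AGL24* had -5.28, -6.39 and -2.31. These genes thus differed in the same direction in both sets of plants.

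Other genes did not. The touch, wound and elicitor genes had a median difference of 0.62 at 4 h, with 2 of 6 higher and 1 lower. Of all probe sets tested at 4 h, 32.5% were higher and 38.7% lower. *WRKY53* had -0.61 at 4 h (adjusted p = 0.0176), and *STZ* 2.03 (adjusted p = 0.00546). UGT genes were higher in 4 and lower in 14 of 28 at 4 h, and IQD genes higher in 2 and lower in 5 of 8. These counts are to be read beside the same shares, which lean to lower. *CPC* turned, with 5.77 to 8.46 in GL3-GR and 4.64 to 5.56 in GL1-GR at 4 h, a difference of 1.70 (adjusted p = 0.000784). *PRX37*, which was lower at 24 h, was higher by 2.52 at 4 h. AT2G18370 had 1.78 at 4 h (adjusted p = 2.21e-06) and AT1G09500 had -0.73 (adjusted p = 0.00719). *EGL3* was low in both lines at 4 h, with 2.38 to 3.36 in GL3-GR, at or near the floor, and 4.06 to 4.45 in GL1-GR, and no size is given for its difference. Differences between the times were not tested.

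**Figure D5:**
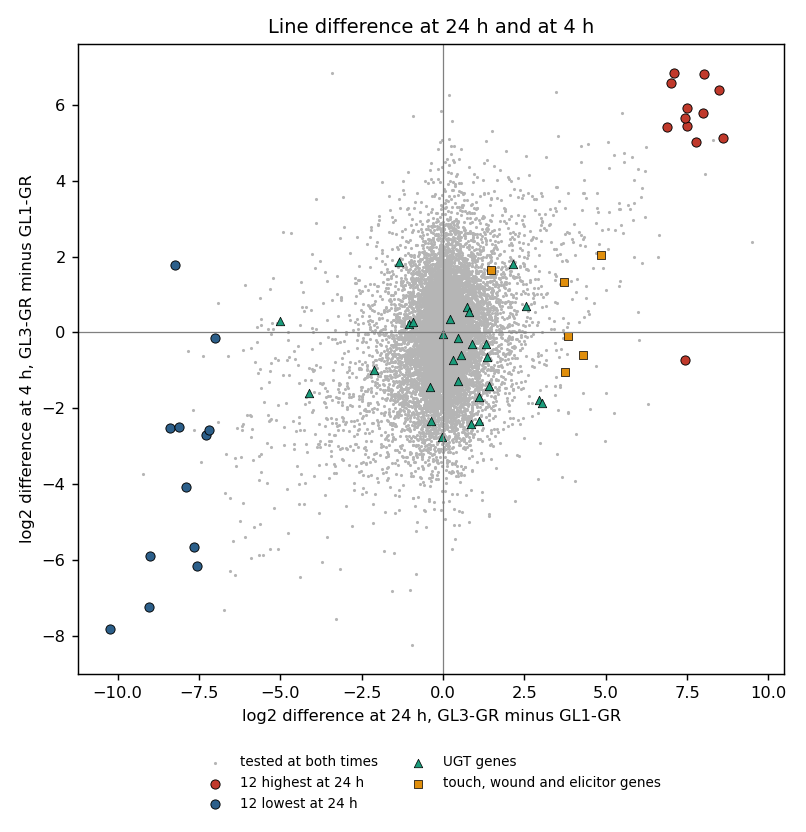
GL3-GR minus GL1-GR log2 difference at 24 h (horizontal axis) and at 4 h (vertical axis) of each probe set tested at both times, with the named genes, UGT genes and touch, wound and elicitor genes marked. The 12 highest named genes except AT1G09500 had 5 to 6.84 at 4 h, the 12 lowest ran from -7.80 to 1.78, and the touch, wound and elicitor genes spread from -1.05 to 2.03 at 4 h.

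The line difference was also asked in DEX and Mock plants separately, since DEX activates a different factor in each line. In the limma test of the interaction, 0 of 14255 probe sets passed, the smallest adjusted p was 1, and 281 had an unadjusted p under 0.05. The line difference in DEX plants minus that in Mock plants was -0.59 for *AOP3*, 0.09 for *CPC* and 1.01 for *PDF1.2*. GL3-GR had 2 arrays in each treatment, and how small an interaction could have been found was not tested.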

How the data were processed

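RNA of the 22 samples was hybridized to Affymetrix ATH1 arrays, and the 10 arrays of 24 h were used for the comparison and the 12 arrays of 4 h beside it. The authors normalized the arrays by GCRMA in R with AffylmGUI, whose version is not given in the sources used here, and deposited 1 log2 value per probe set and array. The scale was read from the deposited log2 values themselves. Minimum and median differ by line and time, and which arrays the authors normalized together is not given in the sources used here. The background correction puts probe sets without signal at a common floor. Arrays have no read depth, and their number limits the precision. No column of values was left without a sample.

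The 64 control probe sets were left out. The 10 arrays were quantile-normalized, and probe sets above the 40th percentile of an array (of its deposited values) on at least 4 arrays were tested with limma 3.58.1 in R 4.3.3, with line and treatment as terms and Benjamini-Hochberg adjustment over all 14255. A probe set passed at an adjusted p under 0.05. The 4 h arrays were treated likewise, with at least 6 arrays. On simulated data of 14255 probe sets with the spread of the line comparison, 57.6%, 85.1% and 97% of log2 changes of 0.5, 1 and 2 were recovered, with 14 false calls. Only 66, 67 and 67 probe sets were changed there, whereas 61.5% passed in the data. These rates therefore check the procedure and do not carry over to the data.

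Of 22746 probe sets, 13566 had 1 gene in the platform annotation or, for 53, among the trichome genes that the study lists, 503 had several and 8677 had none. Of those tested, 7814 had 1 gene. Symbols follow RefSeq (TAIR10.1). Named were *GL1*, *GL3* and *EGL3*, the 12 highest and 12 lowest differences among probe sets that passed with 1 gene and arrays that did not overlap, up to 6 passing members with the largest difference of each list, every tested gene of trichome initiation, and members of runs. As 342 runs were found, only those with a size over 2 and the longest are named, which departs from that rule. Lists and members were chosen with earlier results of these data known. The lists of peroxidases and of touch, wound and elicitor genes were added later, from loci that RefSeq names, and families were formed by symbol stem with at least 5 tested. Roles of genes are background knowledge. Alternatives covered the scaling, the filter, single treatments, single arrays, replicate blocks, the model of the spread and the methods' t-test. Figures were drawn with matplotlib 3.10.9. The result of 1 gene family is not reported here.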

Additional observations from a re-analysis of the deposited data

Results flagged for a closer look

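Of 253 sets of values (a named gene in 1 line), 30 had an array set apart from the others by Dixon's criterion, where chance gives about 1 in 20. In GL3-GR these were AT5G51620 on DEX 2 (10.32), *CHIL* on Mock 1 (3.06), *SPCH* on DEX 2 (2.52), *KRP1* on DEX 2 (9.26), At3g50790 on Mock 1 (9.72), *ROL1* on Mock 2 (9.85), *ARP2* (7.93), AT4G15260 (7.79), *BRK1* (7.91) and *RALFL31* (6.57) on DEX 1, *UGT85A4* (3.8), *RCA* (13.51), *ZWI* (5.58) and *E2FA* (5.9) on Mock 1, and *ARP7* (8.77), *SWEET10* (6.05) and *ECS1* (8.34) on Mock 2. In GL1-GR they were *HTB11* (3.85), AT5G49440 (10.62), *PRX25* (5.21), *DTX50* (2.80), AT4G15260 (9.88), *RBR1* (6.52) and *CSLC04* (3.40) on Mock 3, *STOMAGEN* (12), *ARP2* (8.44) and *UGT73C1* (3.26) on DEX 3, *CDKC;1* (4.8) and *CDKC;2* (6.46) on Mock 1 and *SAG101* (9.33) on DEX 2. Of the 13 GL1-GR values 10 lay on arrays of sample number 3, and the 17 of GL3-GR were spread over all 4 arrays.

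Of 148 named probe sets tested at both times, 10 had arrays of the lines apart at 24 h and at 4 h in opposite directions. The difference between the times was not tested. The line difference was -8.22 at 24 h and 1.78 at 4 h for AT2G18370, -3.95 and 1.70 for *CPC*, -2.25 and 2.52 for *PRX37*, 0.37 and -1.17 for At3g50790, -2.71 and 1.30 for AT1G31335, -2.30 and 1.12 for AT2G17710, -4.92 and 2.65 for *RALFL27*, -1.36 and 1.86 for *UGT71C2*, -0.60 and 1.99 for *SIM*, and 0.27 and -0.66 for *ARP7*. At 4 h AT2G18370 had 8.05 to 8.91 in GL3-GR and 6.48 to 7.23 in GL1-GR.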

How the results depend on the processing

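None of the named genes changed sign with a pass under any alternative. Of 3841 values of 156 named probe sets under alternatives, 3673 stayed on their side of the threshold, 134 fell below it and 34 moved above it, and all 578 values of the 24 most different genes passed. The 8768 probe sets that passed at 24 h became 5266 (2726 higher, 2540 lower) with Mock arrays alone and 5330 (2755 higher, 2575 lower) with all 22 arrays normalized together. The setting with all 22 arrays also fitted 1 mean per group over both times, so its spread includes that of the 4 h arrays. The list members that passed became 33 with Mock arrays alone and 34 with all 22 arrays, against 55. With DEX arrays alone, the same number of arrays as with Mock alone, 6989 passed, and the causes were not tested. For the other settings the total lay within 1.5 times, and single arrays left out gave 7889 to 9492, and 48 to 58 list members. With values as deposited, 5195 were higher and 3668 lower, or 58.6% higher against 51.4%, so small differences of direction depend on the scaling. Without a filter, 12707 of 22746 passed. The interaction gave 0 to 1 with single arrays left out, with the 1 found without GL3-GR DEX 2, and 1 without a filter.

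Sample numbers were not taken to pair the samples. Deviations of arrays with the same number correlated at -0.14 in GL3-GR, where 2 arrays per group give 1 value for both numbers, and at 0.06, 0.17 and 0.36 in GL1-GR, where 1 of the 3 was under 0.1. With the number as a fixed replicate block 8869 passed, and with line and number as a random block 8673. Without both GL1-GR arrays of number 3, a choice made after seeing the data, 9496 passed. Array weights were lowest for GL1-GR Mock 3 (0.24) and DEX 3 (0.65). Of the differences shared with 4 h, the count of opposite sign was 4284 against 3420 of the same sign with values as deposited, while it was 2249 against 3500 after normalization. Probe sets near the floor have no order, and 40.2% to 41.3% of each array lay within 0.5 of its minimum.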
